A study of Mus musculus with 10 samples.

Results

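The genes described here take up glucose and carry it through glycolysis to lactate: Slc2a1, Hk1, Hk2, Pfkfb3, Pfkl, Pfkp, Aldoa, Pkm2, Ldha and Ldhb. They were taken as the rows of the count table with these 10 symbols, a list drawn up with earlier results of these data known, and all 10 were found among its 23284 gene rows. RNA was measured by RNA-seq in 3 endothelial populations of wild-type C57BL/6 mice aged 6 to 8 weeks, none of them treated. LN-LEC are lymphatic endothelial cells sorted from lymph nodes (n = 4 libraries), LN-BEC the blood endothelial cells sorted from lymph nodes (n = 3), and D-LEC the lymphatic endothelial cells sorted from diaphragms (n = 3). For both LN populations, inguinal, axillary, brachial, cervical and mesenteric nodes were combined. Each library pools cells of several animals, so the spread between libraries is that of pools and the p-values measure no more than this spread. The cells had been freed by mechanical and enzymatic digestion, depleted of CD45+ cells and sorted as CD31+ cells with or without PDPN, and RNA was taken from the sorted cells without culture.

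Glucose enters a cell through facilitative transporters, of which GLUT1, encoded by Slc2a1, is the principal one of endothelium. Hexokinase traps it as glucose 6-phosphate, phosphofructokinase makes the committed step, aldolase splits the sugar, pyruvate kinase forms pyruvate, and lactate dehydrogenase turns pyruvate into lactate. PFKFB3 makes fructose 2,6-bisphosphate, the strongest activator of phosphofructokinase. Endothelial cells are known for drawing most of their ATP from glycolysis, and PFKFB3 is known as a driver of their glycolysis during vessel sprouting.

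Several of these genes are textbook targets of the hypoxia-inducible factors (HIF), which bind DNA at the letters ACGTG or GCGTG. The 250 bases upstream of the first listed transcription start were taken from RefSeq (mouse build GRCm38.p6) for all 10 genes, with Pkm2 listed as Pkm. Of these, 4 are shown. Slc2a1, Pfkfb3 and Hk2 had their highest level in a different population each, and Ldha held the letters in 3 places, as many as Pfkp. They run 5′ to 3′ in the direction of the gene, and capitals mark ACGTG or GCGTG on either strand (CACGT and CACGC are the same letters read on the other strand, and both strands of CACGTG match). The positions are chr4:119108495-119108744 (plus strand), chr6:82774455-82774704 (minus), chr2:11553930-11554179 (minus, the first of 2 listed starts) and chr7:46845554-46845803 (plus, the first of 2).
Slc2a1: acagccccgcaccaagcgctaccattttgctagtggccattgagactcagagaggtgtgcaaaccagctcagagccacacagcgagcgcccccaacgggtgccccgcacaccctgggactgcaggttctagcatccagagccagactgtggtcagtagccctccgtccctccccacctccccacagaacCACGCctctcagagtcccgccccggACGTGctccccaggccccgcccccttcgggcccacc
Hk2: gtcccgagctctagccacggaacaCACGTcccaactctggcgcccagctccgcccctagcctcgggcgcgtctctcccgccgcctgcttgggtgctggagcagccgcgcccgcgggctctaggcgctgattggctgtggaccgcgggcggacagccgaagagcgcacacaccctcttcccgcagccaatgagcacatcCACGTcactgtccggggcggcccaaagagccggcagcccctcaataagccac
Pfkfb3: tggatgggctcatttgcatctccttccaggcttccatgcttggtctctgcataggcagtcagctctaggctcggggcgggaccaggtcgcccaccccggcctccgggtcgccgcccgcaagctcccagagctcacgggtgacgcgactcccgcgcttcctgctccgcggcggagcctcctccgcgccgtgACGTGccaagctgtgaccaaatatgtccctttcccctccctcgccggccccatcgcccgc
Ldha: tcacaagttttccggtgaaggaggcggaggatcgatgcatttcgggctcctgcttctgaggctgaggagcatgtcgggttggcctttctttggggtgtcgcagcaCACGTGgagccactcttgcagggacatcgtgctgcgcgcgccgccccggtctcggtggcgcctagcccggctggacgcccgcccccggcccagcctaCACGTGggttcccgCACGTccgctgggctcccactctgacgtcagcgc
The letters stand at 2 places in Slc2a1, 2 in Hk2, 1 in Pfkfb3 and 3 in Ldha. They stand at 3 places in Pfkp, 1 in Pfkl and 1 in Ldhb, and at 0 in the windows of Hk1, Aldoa and Pkm2, each of which has more than 1 listed start. Thus 7 of 10 windows hold them, beside 38.6% of 27025 RefSeq promoter windows of the same length (ACGTG in 16.6% and GCGTG in 28.2%). A match of 5 letters is a description of the window and no evidence of binding.

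Sequencing depth was 22429940 to 48906070 counted fragments per library (median 33067956.5), and the 10 genes together took 0.0971% to 0.145% of a library. At these depths 3 counts, the limit that a count of 0 allows, equal 0.0613 to 0.134 CPM (counts scaled to the library total), which covers counting error only. Lineage markers followed the labels: all 5 LEC markers (Prox1, Lyve1, Pdpn, Flt4 and Reln) were higher and all 4 BEC markers (Flt1, Nrp1, Vwf and Notch4) lower in both LEC populations than LN-BEC. PDPN was itself used in the sort. Of 7 erythroid markers, the 4 globin genes were listed at 0 in every library. This is not read as absence of globin RNA, since fragments mapping to several places were not counted. A list of 12 immediate early and stress genes that tissue dissociation is known to induce, Fos, Jun and Egr1 among them, summed to 33070 to 90944 normalized counts in LN-LEC, 94881 to 177536 in LN-BEC and 257997 to 287174 in D-LEC. LN-LEC 4 (90944, beside 33070 to 43400 in LN-LEC 1 to 3) and LN-BEC 3 (177536, beside 94881 and 112916) stood apart from their groups in this sum. Both also come last in the order of the samples, after the D-LEC libraries and apart from their own groups, and the labels do not say why.

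The 10 genes did not move as a block. Every log2 fold change below is the first population minus the second of the comparisons LN-LEC against D-LEC, LN-LEC against LN-BEC and D-LEC against LN-BEC, so that a negative value means more in the second. Between LN-LEC and D-LEC, the same lineage in 2 tissues, 6 of 10 passed the test (edgeR adjusted p under 0.05), beside 45.8% of the 15332 genes tested. Slc2a1 and Pfkfb3 were higher in LN-LEC (2 of 10, beside 24.1% of all genes), and Hk2, Pfkl, Pfkp and Aldoa were higher in D-LEC (4 of 10, beside 21.7%). Between LN-LEC and LN-BEC, 2 lineages of the same tissue, 6 of 10 passed, beside 38.2% of all genes: Pfkfb3 was higher in LN-LEC (1 of 10, beside 19.8%), and Slc2a1, Pfkl, Pfkp, Pkm2 and Ldhb were higher in LN-BEC (5 of 10, beside 18.4%). Between D-LEC and LN-BEC, which differ in both tissue and lineage so that these cannot be told apart, 6 of 10 passed, beside 48.1%: Hk2 and Aldoa were higher in D-LEC (2 of 10, beside 22.4%), and Slc2a1, Pfkfb3, Pkm2 and Ldhb were higher in LN-BEC (4 of 10, beside 25.6%).

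With 10 genes, the counts that passed lay 1 to 2 genes above what the share of all genes gives in each comparison, a difference that is not read as a result. The median log2 fold change of the 10 genes was -0.19 in LN-LEC against D-LEC, -0.42 in LN-LEC against LN-BEC and -0.20 in D-LEC against LN-BEC, beside 0.03, -0.01 and -0.05 over all genes tested. Changes of at least 2-fold that passed were found in 3 (Hk2, Pfkfb3 and Aldoa), 2 (Slc2a1 and Ldhb) and 3 (Slc2a1, Hk2 and Ldhb) of the 10, beside 23.3%, 20.6% and 27% of all genes. The libraries of the 2 groups did not overlap for 6 of 10 genes in every comparison, beside 50%, 44.9% and 56.1% of all genes. Each population enters 2 of the 3 comparisons, so these are not independent of each other. In sorted bulk cells, fewer cells of a type and less RNA per cell cannot be told apart.

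**Figure D1:**
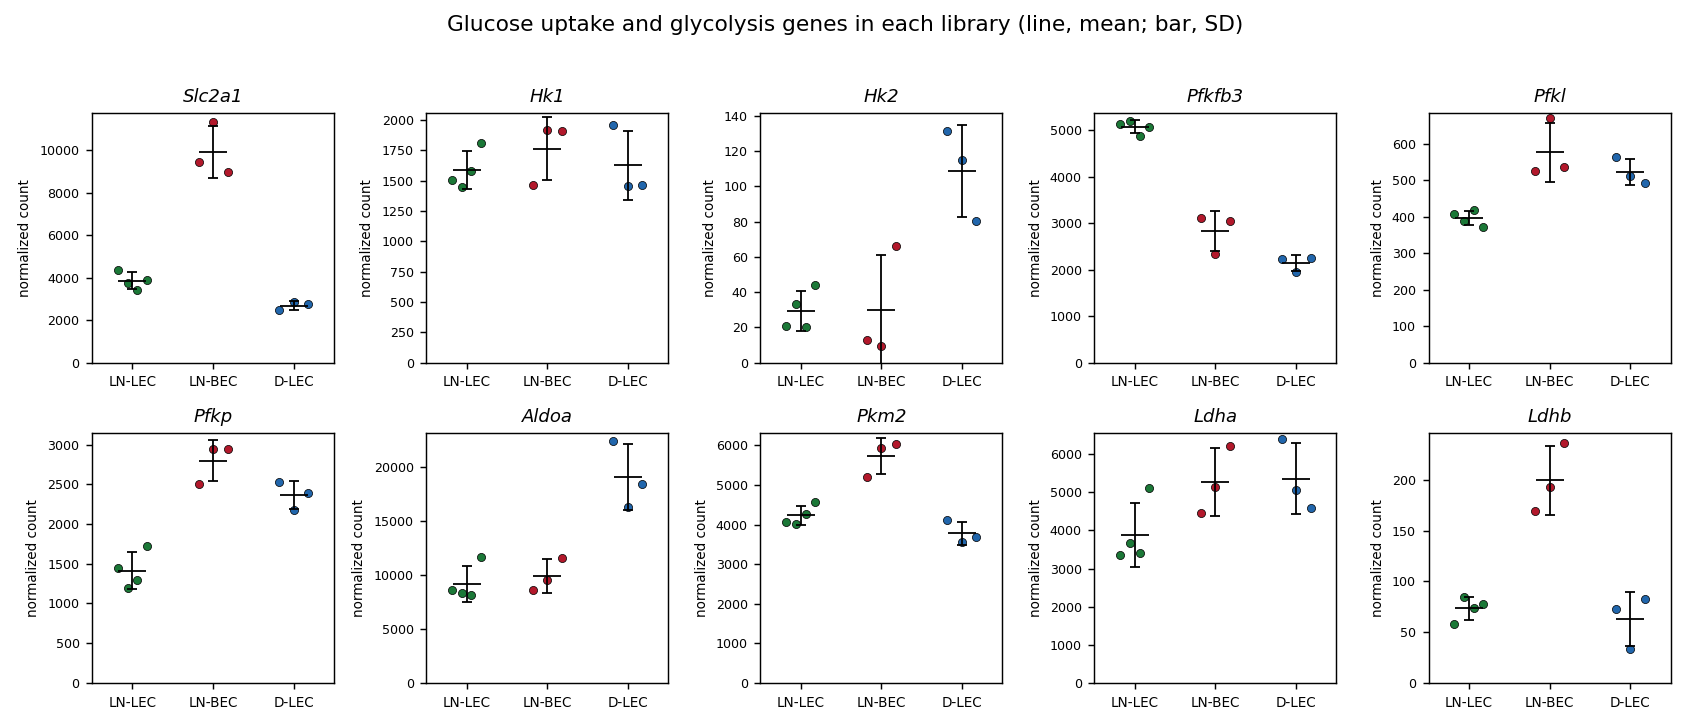
Normalized count (counts divided by DESeq2 size factors, linear axes from 0) of each of the 10 genes in every library, by population, with the mean as a line and the SD as a bar (n = 4 for LN-LEC and 3 for each of the others). Slc2a1 is highest in the 3 LN-BEC libraries, Pfkfb3 in the 4 LN-LEC libraries and Aldoa and Hk2 in the 3 D-LEC libraries, while the Hk1 points of all 3 populations overlap.

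**Figure D2:**
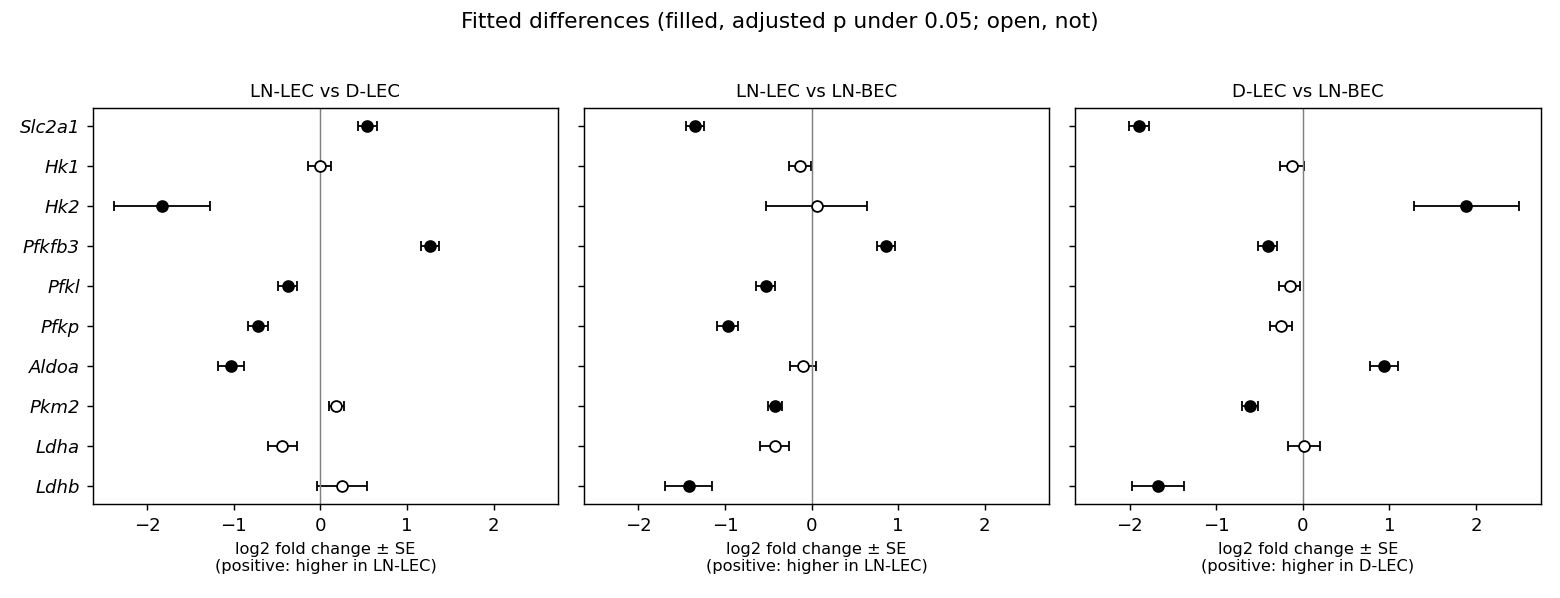
Log2 fold change of the 10 genes in the 3 comparisons, with SE bars, from the edgeR fit; filled points have an adjusted p under 0.05. Slc2a1 and Pfkfb3 lie on opposite sides of 0 in LN-LEC against LN-BEC (-1.35 and 0.86), and the widest bars belong to Hk2.

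Slc2a1 (chr4:118781350-118809934 on the plus strand of mm9, the build of the files) was highest in blood endothelium. Its normalized counts were 9459, 11324 and 8993 in LN-BEC 1 to 3, 4381, 3753, 3439.7 and 3889 in LN-LEC 1 to 4 and 2476, 2833 and 2763 in D-LEC 1 to 3. No library of one population reached the values of another. LN-LEC lay 2.54-fold below LN-BEC (log2 fold change -1.35, SE 0.11, edgeR adjusted p = 1.90e-07) and 1.46-fold above D-LEC (log2 fold change 0.54, SE 0.11, edgeR adjusted p = 8.98e-04). D-LEC lay 3.70-fold below LN-BEC (log2 fold change -1.89, SE 0.12, edgeR adjusted p = 1.25e-08). All 3 calls held in each alternative run. Between LN-LEC and LN-BEC, 18.4% of all genes were higher in LN-BEC and 19.8% lower. Of 10 leukocyte markers, 6 were also higher in LN-BEC than LN-LEC and 0 were lower. Their sum was 729 to 1109 normalized counts in LN-BEC, 245 to 285 in LN-LEC and 138 to 263 in D-LEC. Of 9 fibroblast and mural markers, 4 were higher in LN-BEC than LN-LEC (sums of 6381 to 11075, 6200 to 9911 and 1972 to 4685 in LN-BEC, then LN-LEC, then D-LEC), and of 5 adipocyte markers 4 were higher (sums of 76.1 to 228, 14.3 to 50.3 and 299 to 492, most of the last from Plin4). The part of these cells in the Slc2a1, Pkm2 and Ldhb results was not tested.

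Of the hexokinases, Hk1 was by far the more abundant transcript and Hk2 the one that varied. Hk1, the housekeeping form (chr10:61731603-61842656 on the minus strand), had normalized counts of 1504, 1447, 1579.6 and 1807 for LN-LEC, 1460.1, 1918 and 1908 for LN-BEC and 1955, 1452 and 1465 for D-LEC. The 3 ranges overlapped, and the log2 fold changes were -0.01, -0.14 and -0.13 in the order of comparisons above (edgeR adjusted p = 0.961, 0.444 and 0.474).

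Hk2, the inducible form typical of muscle and fat (chr6:82675021-82724448 on the minus strand), had normalized counts of 131, 115 and 80.2 in D-LEC, 20.7, 33.0, 20.4 and 44.0 in LN-LEC and 13.1, 9.51 and 66.2 in LN-BEC. Every D-LEC library lay above all LN libraries, and LN-BEC 3 lay at least 5 times as high as the other LN-BEC libraries. D-LEC exceeded LN-LEC 3.55-fold (log2 fold change -1.83, SE 0.55, edgeR adjusted p = 0.0177) and LN-BEC 3.71-fold (log2 fold change 1.89, SE 0.61, edgeR adjusted p = 0.0231), while the LN populations were at a log2 fold change of 0.06 (SE 0.58, edgeR adjusted p = 0.953). Both calls depended on single libraries. Neither could be made when the filter was an FPKM-type level (counts scaled to library total and exon length) of at least 1. The mean of Hk2 was below that level in every population. Hk2 in D-LEC against LN-LEC lost its call without LN-LEC 1, LN-LEC 3 or D-LEC 1 (adjusted p = 0.0515, 0.0502 and 0.0594), and in D-LEC against LN-BEC without LN-BEC 1, LN-BEC 2, D-LEC 1 or D-LEC 2 (adjusted p from 0.0513 to 0.0728). Without LN-BEC 3, Hk2 was higher in LN-LEC than LN-BEC (log2 fold change 1.41, edgeR adjusted p = 0.0223) and the D-LEC excess over LN-BEC was 3.23 on the log2 scale.

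Per kilobase of exon, the scale on which genes can be compared, Hk2 made up 5.20%, 6.10% and 4.28% of Hk1 plus Hk2 in D-LEC 1 to 3. Its share was 1.04% to 1.95% in LN-LEC and 0.404% to 2.76% in LN-BEC. The D-LEC shares lay above all others. The exact two-sided permutation test of D-LEC against LN-LEC gave p = 0.0571, the smallest that 4 against 3 libraries allow, and that against LN-BEC gave p = 0.1, the smallest for 3 against 3, so that neither can pass 0.05 (Benjamini-Hochberg adjusted p over 9 share tests 0.129 and 0.15).

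Pfkfb3 was highest in LN-LEC. This bifunctional enzyme (chr2:11393058-11475556 on the minus strand) had normalized counts of 5145, 5201, 4879 and 5069 in LN-LEC 1 to 4, a spread of 140.4 (SD) around a mean of 5073. LN-BEC held 3107, 2342 and 3054, and D-LEC held 2227, 1956 and 2259. The 3 populations did not overlap. LN-LEC exceeded D-LEC 2.40-fold (log2 fold change 1.26, SE 0.10, edgeR adjusted p = 2.63e-07) and LN-BEC 1.81-fold (log2 fold change 0.86, SE 0.10, edgeR adjusted p = 1.13e-05). D-LEC lay 1.32-fold below LN-BEC (log2 fold change -0.41, SE 0.11, edgeR adjusted p = 0.0064). Its relative Pfkfb2, chosen here after its values were seen, had means of 1643 ± 216 (SD) for LN-LEC, 1529 ± 259 for LN-BEC and 1362 ± 97.6 for D-LEC, and passed in no comparison (edgeR adjusted p from 0.0799 to 0.507).

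The phosphofructokinase subunits Pfkl and Pfkp, named for liver and platelets, were both lowest in LN-LEC. Pfkp (chr13:6579120-6647970 on the minus strand, with 276 exon bases shared with Pitrm1, which a count without strand cannot assign) had normalized counts of 1444, 1192, 1294 and 1722 for LN-LEC, 2505, 2946 and 2947 for LN-BEC and 2526, 2173 and 2388 for D-LEC. All LN-LEC libraries lay below all others, and the other 2 populations overlapped. LN-LEC was 1.96-fold below LN-BEC (log2 fold change -0.97, SE 0.12, edgeR adjusted p = 1.53e-05) and 1.64-fold below D-LEC (log2 fold change -0.72, SE 0.12, edgeR adjusted p = 2.13e-04). Pfkl (chr10:77449694-77472541 on the minus strand) had normalized counts of 408, 389.7, 417 and 372 for LN-LEC, 525, 670.2 and 536 for LN-BEC and 563, 511 and 493 for D-LEC. It was 1.44-fold lower in LN-LEC than LN-BEC (log2 fold change -0.53, SE 0.11, edgeR adjusted p = 0.00155) and 1.30-fold lower than D-LEC (log2 fold change -0.38, SE 0.11, edgeR adjusted p = 0.013). D-LEC and LN-BEC differed at neither gene beyond the threshold (edgeR adjusted p = 0.121 for Pfkp and 0.307 for Pfkl).

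The muscle form Pfkm, which is no member, went the other way. It was 2.19-fold higher in LN-LEC than D-LEC (log2 fold change 1.13, SE 0.14, edgeR adjusted p = 1.14e-05) and 1.37-fold higher than LN-BEC (log2 fold change 0.45, SE 0.13, edgeR adjusted p = 0.0138, or 0.0651 without LN-BEC 3). Per kilobase, Pfkp made up 51.7% to 62.5% of the 3 subunit transcripts in LN-LEC, 69.4% to 73.7% in LN-BEC and 72.3% to 73.1% in D-LEC. Pfkm made up 28.1%, 13.4% and 10.2% on average and Pfkl 16.8%, 15.7% and 17.2% in the same order. For the Pfkp share, LN-LEC did not overlap either other population (exact two-sided permutation p = 0.0571 for both, the smallest possible, adjusted p = 0.129), and D-LEC and LN-BEC gave p = 0.4 (adjusted 0.45).

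**Figure D3:**
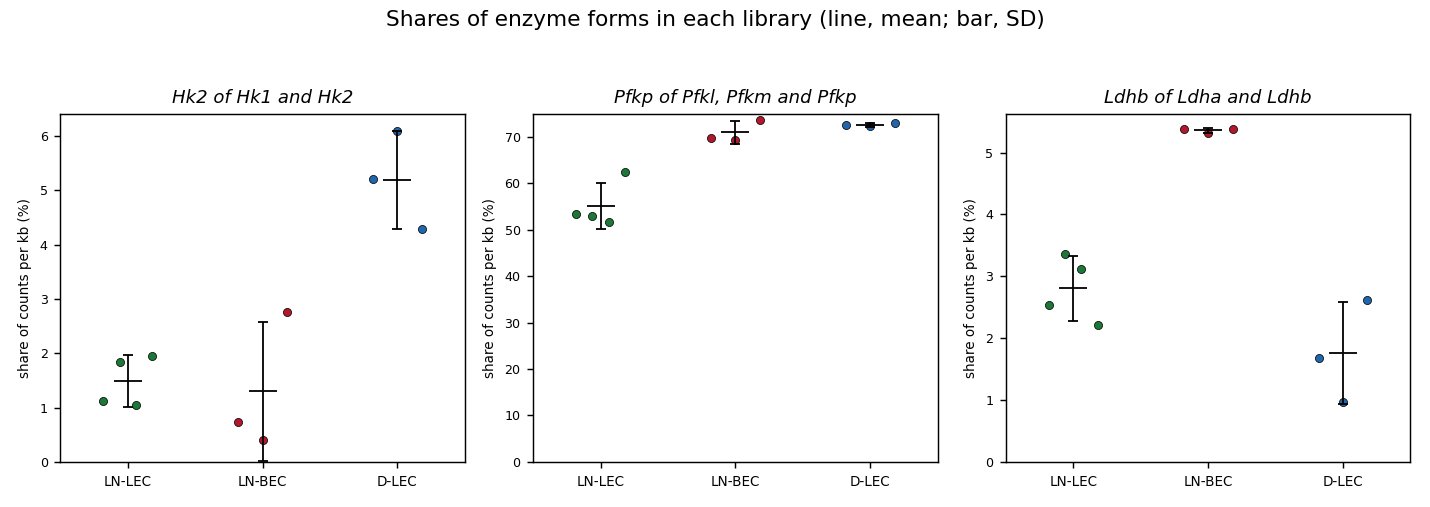
Share of each named enzyme form among its forms, in percent of normalized counts per kilobase of exon, for every library. The forms are Hk1 and Hk2, Pfkl, Pfkm and Pfkp, and Ldha and Ldhb, and Hk3 is left out. The mean is a line and the SD a bar (n = 4, 3 and 3). Hk2 stands higher in D-LEC (mean 5.20%), Pfkp lower in LN-LEC (55.2%) and Ldhb higher in LN-BEC (5.36%) than in the other populations.

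Aldoa, the aldolase of muscle and most other tissues (chr7:133938748-133943961 on the minus strand), was highest in D-LEC. D-LEC 1 to 3 had normalized counts of 22416, 16342 and 18474, LN-LEC 1 to 4 had 8588, 8299.9, 8123 and 11662, and LN-BEC 1 to 3 had 8562, 9511 and 11616. The lowest D-LEC library lay above every LN library, and the LN populations overlapped. D-LEC exceeded LN-LEC 2.05-fold (log2 fold change -1.03, SE 0.15, edgeR adjusted p = 8.81e-05) and LN-BEC 1.92-fold (log2 fold change 0.94, SE 0.16, edgeR adjusted p = 3.54e-04). LN-LEC against LN-BEC gave a log2 fold change of -0.09 (edgeR adjusted p = 0.667).

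The diaphragm is a skeletal muscle, and 15 of 20 skeletal muscle markers were also higher in D-LEC than LN-LEC, beside 21.7% of all genes. Ttn and Tnnt1 were lower. Acta1, skeletal actin, had mean normalized counts of 528 ± 49.0 (SD) in D-LEC, 1.42 ± 2.08 in LN-LEC and 4.53 ± 1.46 in LN-BEC, and muscle creatine kinase, Ckm, had 29.0 ± 10.1, 1.86 ± 2.19 and 4.94 ± 0.536. Over all 20 markers the sums were 3692 to 4679 in D-LEC, 3883 to 4665 in LN-LEC and 3384 to 4226 in LN-BEC, with most of the LN sums from Ttn. Over the 18 markers other than Ttn and Neb, a split made after their values were seen, the sums were 2883 to 3575 in D-LEC, 294 to 363 in LN-LEC and 389 to 436 in LN-BEC. The part of muscle RNA in the Aldoa and Hk2 results was not tested. Of the 12 dissociation genes, 11 were higher and 1 lower in D-LEC than LN-LEC, beside 21.7% and 24.1% of all genes. In D-LEC against LN-BEC, 6 were higher and 1 lower, beside 22.4% and 25.6%. In LN-LEC against LN-BEC, 0 were higher and 6 lower, beside 19.8% and 18.4%. Their part in the Aldoa and Hk2 results was not tested either.

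Pkm2 is the symbol of the files for the pyruvate kinase gene (chr9:59504175-59527182 on the plus strand), whose M1 and M2 transcripts a count per gene does not separate. Its normalized counts were 5214, 5942 and 6036 in LN-BEC, 4062, 4017, 4274 and 4567 in LN-LEC and 4103, 3549 and 3685 in D-LEC. LN-BEC lay above both LEC populations, which overlapped. It exceeded LN-LEC 1.34-fold (log2 fold change -0.42, SE 0.09, edgeR adjusted p = 0.00125) and D-LEC 1.52-fold (log2 fold change -0.61, SE 0.09, edgeR adjusted p = 9.46e-05). The LEC populations differed by 0.19 on the log2 scale (edgeR adjusted p = 0.0968). Of its windows of 100 exon bases, 13.9% have a second exact copy in the genome, and fragments mapping to several places were not counted. Since the reads were pairs, this is not the share of fragments lost.

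Ldha and Ldhb encode the subunits of lactate dehydrogenase, the A form favouring lactate formation and the B form its use. Ldha (chr7:54101174-54110997 on the plus strand) had normalized counts of 3346, 3665, 3408 and 5114 in LN-LEC 1 to 4, 4465, 5138 and 6213 in LN-BEC and 6392, 5067 and 4598 in D-LEC. LN-LEC 4 reached into the range of the other populations, and LN-LEC 1 to 3 did not. LN-LEC was 1.36-fold below D-LEC (log2 fold change -0.44, SE 0.17, edgeR adjusted p = 0.052) and 1.34-fold below LN-BEC (log2 fold change -0.42, SE 0.17, edgeR adjusted p = 0.0688), and neither passed. Without LN-LEC 4 both passed (log2 fold change -0.60, edgeR adjusted p = 0.0026, and -0.59, adjusted p = 0.00352), as they did in all libraries with DESeq2's Wald test (adjusted p = 0.0216 and 0.0306). D-LEC and LN-BEC were at a log2 fold change of 0.01 (edgeR adjusted p = 0.958).

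Ldhb (chr6:142438769-142456463 on the minus strand) was scarce and highest in LN-BEC, with normalized counts of 169.8, 193 and 236. LN-LEC held 58.3, 85.1, 73.5 and 77.3 and D-LEC 73.2, 33.1 and 82.6, with no overlap of LN-BEC with either LEC population. LN-BEC exceeded LN-LEC 2.68-fold (log2 fold change -1.42, SE 0.27, edgeR adjusted p = 8.24e-04) and D-LEC 3.18-fold (log2 fold change -1.67, SE 0.30, edgeR adjusted p = 4.15e-04). The LEC populations gave edgeR adjusted p = 0.508. Per kilobase, Ldhb made up 5.38%, 5.32% and 5.38% of both transcripts in LN-BEC 1 to 3, 2.21% to 3.36% in LN-LEC and 0.967% to 2.62% in D-LEC. LN-BEC did not overlap the others (exact two-sided permutation p = 0.0571 against LN-LEC and 0.1 against D-LEC, the smallest possible, adjusted p = 0.129 and 0.15). Of the Ldhb windows, 10.3% have a second copy in the genome.

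Levels per kilobase put Aldoa first and Hk2 last in every population. In LN-LEC the order was Aldoa (5026 ± 918 normalized counts per kb, SD, n = 4), Ldha (2012 ± 431), Pkm2 (1628 ± 96.6), Slc2a1 (1503 ± 152), Pfkfb3 (960.2 ± 26.6), Pfkp (354 ± 57.8), Hk1 (351 ± 35.02), Pfkl (107 ± 5.47), Ldhb (57.0 ± 8.70) and Hk2 (5.36 ± 2.05). The library ranges of Ldha and Pkm2, of Pkm2 and Slc2a1, and of Pfkp and Hk1 overlapped there, and those of the other neighbours did not. In LN-BEC, Slc2a1 moved up to second place (3859 ± 479.5 normalized counts per kb, SD, n = 3), above Ldha (2732 ± 457) with no overlap. In LN-BEC the ranges of Ldha and Pkm2 and of Pfkl and Ldhb overlapped. Pfkfb3 stood sixth, below Pfkp, in both LN-BEC (536 ± 80.9) and D-LEC (406 ± 31.6), and in D-LEC its range overlapped that of Hk1, the only overlap of neighbours in that population.

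Genes with the most similar pattern were sought for the 5 members that passed at 2-fold or more, by the root-mean-square difference of centred log2 CPM over the 10 libraries among 10817 genes. Slc2a1 was most like Tmc4 (0.13), Lrg1 (0.133) and Fam171a1 (0.138), and Pfkfb3 most like Large (0.128), Slc25a10 (0.129) and Med11 (0.131). Aldoa was most like Frmd8 (0.0971), Pttg1ip (0.105) and Usp10 (0.111). Ldhb was most like Nod2 (0.292), Itpr3 (0.294) and Dlc1 (0.302). The nearest genes to Hk2 were farther from it: Cenpv (0.434), Ddr1 (0.466) and Iqgap2 (0.467).

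Among the 11 other glucose and related sugar transporters, 4 were higher and 1 lower in LN-LEC than D-LEC, beside 24.1% and 21.7% of all genes. In LN-LEC against LN-BEC, 3 were higher and 2 lower, beside 19.8% and 18.4%. In D-LEC against LN-BEC, 2 were higher and 7 lower, beside 22.4% and 25.6%. Slc2a3, the high-affinity GLUT3, was highest in LN-BEC, with normalized counts of 887, 953 and 709 beside 318, 253, 311 and 149 in LN-LEC and 219, 284 and 252 in D-LEC. It was 3.30-fold lower in LN-LEC than LN-BEC (log2 fold change -1.72, SE 0.22, edgeR adjusted p = 6.16e-05). Slc2a12 and Slc2a13, the latter a myo-inositol transporter, were highest in LN-LEC, 11.9-fold (log2 fold change 3.57, SE 0.28, edgeR adjusted p = 1.82e-07) and 3.82-fold (log2 fold change 1.93, SE 0.13, edgeR adjusted p = 3.18e-08) above D-LEC. Over LN-BEC the Slc2a13 excess was 1.28-fold (log2 fold change 0.35, SE 0.12, edgeR adjusted p = 0.0308, or up to 0.141 with 1 library left out). Slc2a10 was 1.56-fold lower in LN-LEC than D-LEC (log2 fold change -0.64, SE 0.12, edgeR adjusted p = 4.31e-04). Slc2a9, a urate transporter, was 3.11-fold lower in D-LEC than LN-BEC (log2 fold change -1.64, SE 0.30, edgeR adjusted p = 4.81e-04).

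Of 22 further glycolytic enzyme genes, 18 could be tested. Of these, 3 were higher and 3 lower in LN-LEC than D-LEC, beside 24.1% and 21.7% of all genes. In LN-LEC against LN-BEC, 3 were higher and 2 lower, beside 19.8% and 18.4%. In D-LEC against LN-BEC, 4 were higher and 5 lower, beside 22.4% and 25.6%. Eno2, the neuronal enolase, followed Pfkfb3 in being highest in LN-LEC, with means of 109 ± 10.7 (SD, n = 4), 40.2 ± 11.7 in LN-BEC and 18.5 ± 5.34 in D-LEC. LN-LEC exceeded D-LEC 5.88-fold (log2 fold change 2.56, SE 0.31, edgeR adjusted p = 1.40e-05) and LN-BEC 2.74-fold (log2 fold change 1.46, SE 0.29, edgeR adjusted p = 0.00107). Levels of Gapdh, Pgk1, Pgam1 and Eno1, named for their copies and not for their change, are uncertain. Of their 100-base exon windows, 100%, 83.7%, 84.3% and 64% have a second exact copy in mm9, and fragments mapping to several places were not counted. In addition, 1649 of the 1776 exon bases of Eno1 are shared with Gm5506, and fragments on shared bases cannot be assigned to either gene. The mean normalized count of Gapdh was 97.1 ± 7.75 (SD, n = 4) in LN-LEC.

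Lactate transporters differed widely between the populations. Slc16a1 (MCT1), which carries lactate and pyruvate with protons, had normalized counts of 16660.5, 16785, 14961 and 10350.1 for LN-LEC, 7395, 8226 and 7095 for LN-BEC and 1256, 704 and 1524 for D-LEC. The 3 populations did not overlap, and LN-LEC exceeded D-LEC 12.8-fold (log2 fold change 3.68, SE 0.29, edgeR adjusted p = 4.16e-06) and LN-BEC 1.96-fold (log2 fold change 0.97, SE 0.25, edgeR adjusted p = 0.0128). Slc16a7 (MCT2) was 5.78-fold higher in LN-LEC than D-LEC (log2 fold change 2.53, SE 0.38, edgeR adjusted p = 1.69e-04). Slc16a3 (MCT4), the exporter of highly glycolytic cells, was low and highest in D-LEC, with means of 96.9 ± 1.70 (SD, n = 3), 25.2 ± 7.42 in LN-LEC and 19.8 ± 3.52 in LN-BEC (log2 fold change -1.89, SE 0.29, edgeR adjusted p = 1.09e-04 for LN-LEC against D-LEC). Of the 5 genes on this list, 2 were higher and 1 lower in LN-LEC than D-LEC, beside 24.1% and 21.7% of all genes. In LN-LEC against LN-BEC, 2 were higher and 2 lower, beside 19.8% and 18.4%. In D-LEC against LN-BEC, 1 was higher and 3 lower, beside 22.4% and 25.6%. The transporters' chaperone Bsg, basigin, had means of 5578 ± 585 (SD) for LN-LEC, 7641 ± 459.6 for LN-BEC and 5971 ± 559.5 for D-LEC. Emb, embigin, a chaperone of MCT2, was scarce, with normalized counts of 45.5, 43.2 and 78.8 in LN-BEC 1 to 3, 24.6, 8.89, 10.2 and 22.6 in LN-LEC 1 to 4 and 11.3, 0 and 3.31 in D-LEC 1 to 3. It was lower in D-LEC than LN-BEC (log2 fold change -3.59, SE 0.76, edgeR adjusted p = 0.00149, or -4.88 and -2.99 on the log2 scale without D-LEC 1 and D-LEC 2). In LN-LEC against LN-BEC it passed (log2 fold change -1.71, SE 0.60, edgeR adjusted p = 0.0374), but not without LN-LEC 2, LN-LEC 3, LN-BEC 1 or LN-BEC 3 (adjusted p from 0.0559 to 0.117).

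Of 13 genes for the entry of pyruvate into mitochondria, 4 were higher and 1 lower in LN-LEC than D-LEC, beside 24.1% and 21.7% of all genes. In LN-LEC against LN-BEC, 3 were higher and 1 lower, beside 19.8% and 18.4%. In D-LEC against LN-BEC, 4 were higher and 2 lower, beside 22.4% and 25.6%. Pdk4 and Pdk1, kinases that inhibit pyruvate dehydrogenase, were lowest in D-LEC. Pdk4 had normalized counts of 627, 592, 635 and 479 for LN-LEC, 565, 661 and 736 for LN-BEC and 55.5, 76.2 and 87.6 for D-LEC, a 7.97-fold difference between the LEC populations (log2 fold change 2.99, SE 0.18, edgeR adjusted p = 8.76e-09). For Pdk1 that difference was 2.43-fold (log2 fold change 1.28, SE 0.15, edgeR adjusted p = 1.17e-05). Of 8 pentose phosphate genes, 4 were higher and 0 lower in LN-LEC than D-LEC, beside the same 24.1% and 21.7% of all genes. In LN-LEC against LN-BEC, 3 were higher and 1 lower, beside 19.8% and 18.4%. In D-LEC against LN-BEC, 1 was higher and 2 lower, beside 22.4% and 25.6%. H6pd, the hexose 6-phosphate dehydrogenase of the endoplasmic reticulum, was 8.14-fold higher in LN-LEC (log2 fold change 3.03, SE 0.16, edgeR adjusted p = 4.00e-09) and 5.05-fold higher in D-LEC (log2 fold change 2.34, SE 0.16, edgeR adjusted p = 3.45e-08) than LN-BEC.

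Of 18 regulators of glycolysis, 3 were higher and 7 lower in LN-LEC than D-LEC, beside 24.1% and 21.7% of all genes. In LN-LEC against LN-BEC, 5 were higher and 6 lower, beside 19.8% and 18.4%. In D-LEC against LN-BEC, 7 were higher and 5 lower, beside 22.4% and 25.6%. Epas1, which encodes HIF-2α, was highest in LN-BEC, as Slc2a1 was, with normalized counts of 50498, 52175 and 42072. LN-LEC held 8276, 7840.4, 7317 and 8132 and D-LEC held 10774, 11994 and 11112. For Epas1, LN-LEC was 6.05-fold below LN-BEC (log2 fold change -2.60, SE 0.10, edgeR adjusted p = 2.00e-10). It was also lower in LN-LEC than D-LEC (log2 fold change -0.50, SE 0.10, edgeR adjusted p = 7.19e-04), where Slc2a1 was higher. A link between the 2 genes was not tested. Egln3, an oxygen-sensing prolyl hydroxylase that is itself a HIF target, was 11.1-fold higher in D-LEC than LN-BEC (log2 fold change 3.48, SE 0.26, edgeR adjusted p = 1.06e-07) and lower in LN-LEC than D-LEC (log2 fold change -3.25, SE 0.23, edgeR adjusted p = 7.80e-08). Arrdc4, an arrestin-domain relative of Txnip that limits glucose uptake, was highest in LN-LEC, with normalized counts of 31133, 31280.2, 29616 and 27796, 17.8-fold above D-LEC (log2 fold change 4.16, SE 0.16, edgeR adjusted p = 1.30e-10). Mlxip, which encodes the glucose-sensing transcription factor MondoA, was 3.21-fold higher in LN-LEC than D-LEC (log2 fold change 1.68, SE 0.14, edgeR adjusted p = 4.01e-07).

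Klf2 and Klf4, flow-responsive factors that are also induced by dissociation, were lowest in LN-LEC: 2.95-fold (log2 fold change -1.56, SE 0.28, edgeR adjusted p = 0.00161) and 2.82-fold (log2 fold change -1.49, SE 0.20, edgeR adjusted p = 9.92e-05) below LN-BEC. Klf2 was also lower in LN-LEC than D-LEC (log2 fold change -1.90, SE 0.28, edgeR adjusted p = 4.19e-04). Between D-LEC and LN-BEC, where Pfkfb3 was called, Klf2 did not pass (log2 fold change 0.34, SE 0.29, edgeR adjusted p = 0.368). Klf2 is known to repress Pfkfb3 in endothelium, and its part in the Pfkfb3 levels here was not tested. Myc was 2.74-fold higher in LN-LEC (log2 fold change 1.46, SE 0.10, edgeR adjusted p = 4.73e-08) and 2.41-fold higher in D-LEC (log2 fold change 1.27, SE 0.10, edgeR adjusted p = 1.99e-07) than LN-BEC. Prkaa2, a catalytic subunit of the energy sensor AMPK, was 3.26-fold higher in LN-LEC than LN-BEC (log2 fold change 1.71, SE 0.45, edgeR adjusted p = 0.0143). Its normalized counts in LN-BEC 1 to 3 were 63.0, 51.0 and 211, and without LN-BEC 3 the log2 fold change was 2.60 (edgeR adjusted p = 8.46e-07).

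HIF target genes outside glycolysis were not all highest in 1 population either. Of 14, 3 were higher and 5 lower in LN-LEC than D-LEC, beside 24.1% and 21.7% of all genes. In LN-LEC against LN-BEC, 3 were higher and 3 lower, beside 19.8% and 18.4%. In D-LEC against LN-BEC, 6 were higher and 4 lower, beside 22.4% and 25.6%. The list was not tested as a set. Vegfa, the growth factor, was highest in LN-LEC with normalized counts of 2004, 2157, 1934 and 1754, 7.71-fold above D-LEC (log2 fold change 2.95, SE 0.15, edgeR adjusted p = 1.89e-09). Ndrg1, Ankrd37, P4ha1, Adm and Ddit4 were all lower in LN-LEC than D-LEC, by 2.97-fold, 11.3-fold, 2.53-fold, 2.30-fold and 6.34-fold (edgeR adjusted p = 1.33e-08, 3.13e-08, 5.96e-07, 0.00556 and 3.13e-04). D-LEC also had the highest sums of dissociation response genes (257997 to 287174 normalized counts, given above), and their part in these values was not tested.

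**Figure D4:**
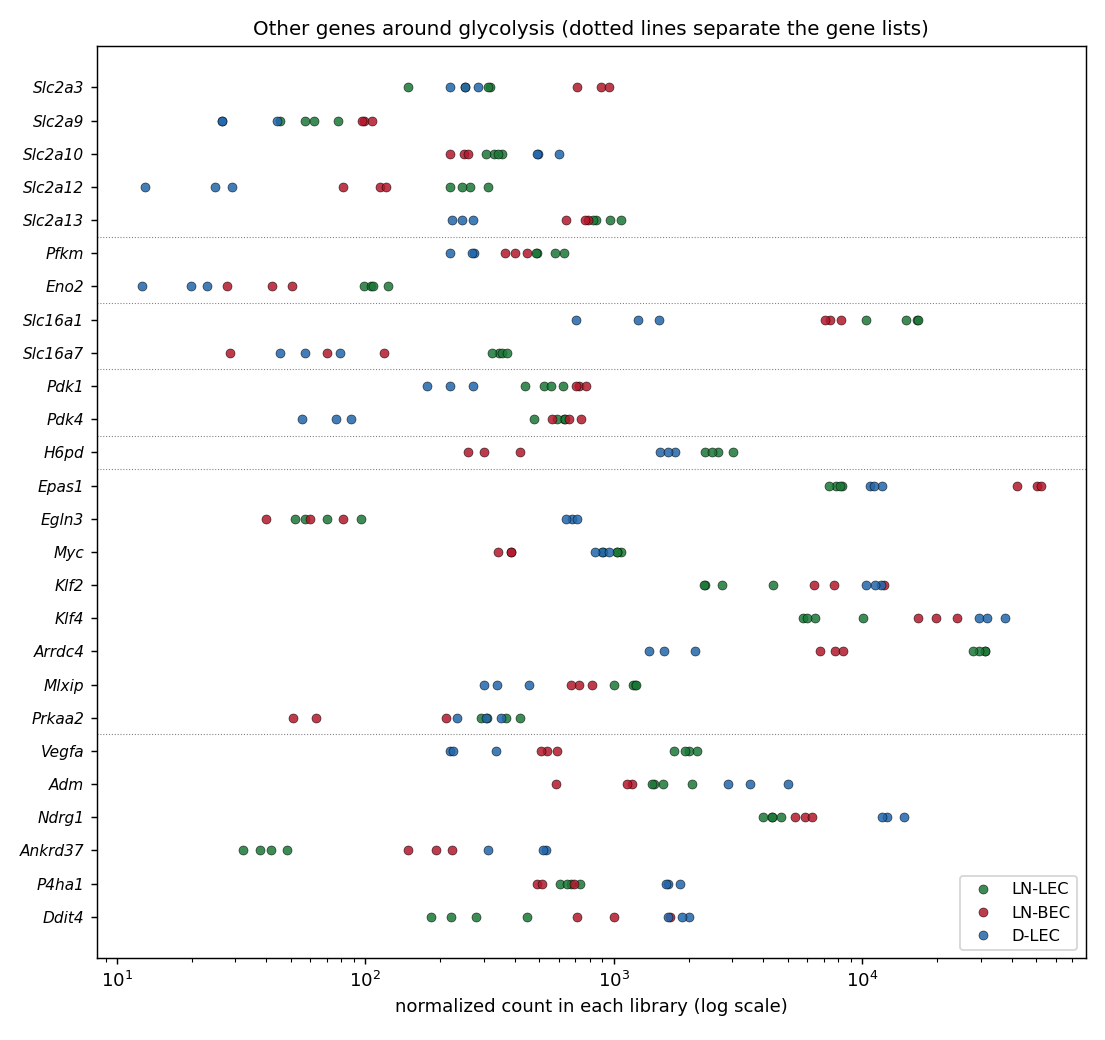
Normalized count, on a log axis, of genes from the 7 lists of other pathway genes, 1 point per library (n = 4 for LN-LEC and 3 for each of the others). Shown are the listed genes that passed at 2-fold or more in at least 1 comparison and reached a mean of 100 normalized counts. Slc16a1, Arrdc4 and Vegfa are highest in the 4 LN-LEC libraries, Epas1 and Slc2a3 in the 3 LN-BEC libraries, and Egln3, Ndrg1 and P4ha1 in the 3 D-LEC libraries.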

How the data were processed

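RNA came from 10 pools of sorted cells, was made into libraries with an Ovation amplification kit and was sequenced as read pairs (Illumina HiSeq). The authors trimmed the reads and aligned them with STAR (build mm9). They tallied fragments over exons by gene symbol using featureCounts 1.4.4, and the deposited values are these raw counts, with exon length beside them as the authors' value. Per the file headers strand was not used, and fragments mapping to several places were not counted, which lowers genes with near-identical copies. Groups were taken from the sample labels, and libraries were numbered in accession order.

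Levels are counts divided by size factors (DESeq2 1.42.0) and are compared between genes only per kilobase. Of 23284 symbols, 3800 predicted or clone symbols were left out, and 15332 whose mean level reached 1 normalized count in at least 1 population were tested, all 10 genes of the group among them. edgeR 4.0.16 in R 4.3.3 fitted 1 mean per population to all libraries (TMM factors, robust quasi-likelihood F test), with Benjamini-Hochberg adjustment within each comparison over all genes and a call at an adjusted p under 0.05. The SE of a log2 fold change was obtained as its size over the square root of F. Log2 fold changes are the first population minus the second. Shares were compared by exact permutation tests. The test was tried on simulated data with known changes first. The genes and lists were chosen with earlier results of these data known. Genes on the 7 lists of other pathway genes were named when they passed at 2-fold or more in a comparison and reached a mean of 100 normalized counts. Such a list was named in full when it held 5 or fewer genes. Markers, genes of similar pattern and names marked in the text are exceptions. Alternatives were DESeq2's Wald test, limma-voom (limma 3.58.1), RLE and upper-quartile factors, other filters, the symbols left out kept in, only the 2 populations compared, each library left out in turn, and LN-LEC 4 and LN-BEC 3 left out together. Depth was 22429940 to 48906070 counted fragments per library, and Hk2 and Ldhb had the fewest counts of the 10 genes. The labels carry no sorting day, batch or pairing.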

Additional observations from a re-analysis of the deposited data

Results flagged for a closer look

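Among 13 sets of 4 LN-LEC values examined (10 genes and 3 shares), the highest or lowest library stood apart in 2, with its gap to the nearest library above Dixon's 95% critical share of the whole range for 4 samples. Chance gives about 1 in 20 such sets. For Aldoa the ratio was 0.869: LN-LEC 4 had 11662 normalized counts and LN-LEC 1 to 3 had 8123 to 8588. For the Pfkp share of phosphofructokinase transcripts it was 0.847: LN-LEC 4 had 62.5% and the others 51.7% to 53.4%. Without LN-LEC 4, the Aldoa log2 fold change of LN-LEC against D-LEC was -1.17 (edgeR adjusted p = 6.46e-06). The same library had the highest sum of dissociation response genes in its population, 90944 normalized counts, and the part of this in either value was not tested. LN-BEC and D-LEC, with 3 libraries each, were not examined in this way.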

How the results depend on the processing

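Of 114 recomputed counts of members called, 107 stayed within 1.5 times the main count and 7 did not. Members higher in D-LEC than LN-BEC fell from 2 to 1 when the filter was an FPKM-type level of at least 1. That filter dropped Hk2 from the test in every comparison. The members higher in D-LEC than LN-BEC also fell to 1 when only the 2 populations were fitted (Hk2, edgeR adjusted p = 0.0523). With 1 library left out they ranged from 1 to 2, and members higher in LN-LEC than LN-BEC from 1 to 2. The Hk2 share, LN-LEC minus LN-BEC, ranged from -0.258 to 0.919 percentage points (-0.0951 without LN-BEC 1 and -0.258 without LN-BEC 2).

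Of 567 recomputed fold changes of the 10 genes, 529 kept direction and side of the threshold, 17 gained a call, 8 lost one and 13 changed sign, none of the latter for a gene in a comparison where it passed in the main test. With 1 library left out, the log2 fold change of LN-LEC against D-LEC ranged from -0.0843 to 0.135 for Hk1 and from -0.0613 to 0.512 for Ldhb, that of LN-LEC against LN-BEC from -0.353 to 1.41 for Hk2 and from -0.232 to 0.0258 for Aldoa, and that of D-LEC against LN-BEC from -0.123 to 0.141 for Ldha. Hk1 in LN-LEC against D-LEC also turned to 0.00715 with limma-voom, and Ldha in D-LEC against LN-BEC to -0.00206 with upper-quartile factors and -0.00807 with the FPKM filter. Ldha passed in LN-LEC against D-LEC with DESeq2 (adjusted p = 0.0216), RLE factors (0.0449), upper-quartile factors (0.0392), the left-out symbols kept (0.0491), the 2 populations alone (0.0432) and limma-voom (0.04), and its adjusted p ranged from 0.0026 to 0.219 with 1 library left out. In LN-LEC against LN-BEC, Ldha passed with DESeq2 (0.0306) and upper-quartile factors (0.0447). The cause of these changes was not tested. No paired analysis was possible because the labels number no replicates and name no batch or day. Depth limits Hk2 and Ldhb most, the members with the fewest counts.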

Other observations

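Txnip and Arrdc4, related arrestin-domain genes that are both induced by glucose through the MondoA factor, were ordered differently over the populations. Txnip, which was chosen here after its values were seen, had mean normalized counts of 47478 ± 5851 (SD, n = 4) for LN-LEC, 44944 ± 9388 (n = 3) for LN-BEC and 69416 ± 11162 (n = 3) for D-LEC, and was lower in LN-LEC than D-LEC (log2 fold change -0.53, SE 0.15, edgeR adjusted p = 0.0102, or 0.053 without D-LEC 1). Arrdc4 had 29956 ± 1625, 7636 ± 835 and 1701 ± 382 and was higher in LN-LEC than D-LEC (log2 fold change 4.16, SE 0.16, edgeR adjusted p = 1.30e-10). The difference between the 2 genes was not tested.

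Ttn, which encodes the giant sarcomere protein titin and stood on the list of muscle markers, was lowest in the population taken from muscle. Its mean normalized counts were 3678 ± 300.2 (SD, n = 4) for LN-LEC, 3178 ± 365 (n = 3) for LN-BEC and 845 ± 219 (n = 3) for D-LEC (log2 fold change 2.14, SE 0.16, edgeR adjusted p = 3.49e-07 for LN-LEC against D-LEC). Acta1, on the same list, was at 1.42 ± 2.08, 4.53 ± 1.46 and 528 ± 49.0.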
